A study of Mus musculus with 3 samples.

Results

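Periportal hepatocytes, the liver parenchymal cells next to the portal vein and hepatic artery, were taken from single-cell RNA libraries of 3 wild-type mice. The 690 members were found among 8087 cells and 1519 hepatocytes: 128 in the control library, 465 in the holo-transferrin library and 97 in the high-iron library. A barcode counted as a cell from 1000 unique molecular identifiers (UMIs, the counted transcript molecules) and 300 genes upwards, if no more than 20% of its UMIs were mitochondrial. A hepatocyte had Alb, Apoa1, Apob, Fabp1 and Serpina3k at 150 or more per 10000 UMIs together and fewer than 20 per 10000 of endothelial and Kupffer cell markers. A member had 2 or more UMIs of 4 periportal genes (Cyp2f2, Hsd17b13, Hal, Sds) and no fewer than of 5 pericentral genes (Cyp2e1, Cyp1a2, Cyp2c29, Oat, Glul). Hepatocytes with 2 or more UMIs of the pericentral genes and more of them than of the periportal genes (343 cells) served as pericentral hepatocytes for comparison.

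All 3 mice had eaten an iron-deficient diet of 2 to 6 ppm iron for 1 week. The control mouse (IDD) received nothing more, a second mouse (IDD+HTF) was given 10 mg of holo-transferrin, the plasma carrier loaded with iron, through the tail vein (the time from injection to collection is not given in the sources used here), and the other (IDD+HID) spent 18 h on food containing 2% carbonyl iron. The livers were perfused with collagenase and pronase, hepatocytes were selected for viability, and each suspension was mixed as 5% hepatocytes and 95% non-parenchymal cells. Because of this mixing, hepatocyte numbers are not read as those of the liver. They also lay above the 5% mixed in. The control library had 233 hepatocytes among 1334 cells, the holo-transferrin library 1020 among 3208 and the high-iron library 266 among 3545. The reason for this spread was not tested. With 1 mouse in each group the libraries have no replicates: ratios between libraries are given with 95% intervals that cover counting error only, and no test of a treatment was possible.

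Blood enters the liver lobule at the portal end and leaves at the central vein, and hepatocytes divide their work along that path. Periportal hepatocytes receive the most oxygen and are known for gluconeogenesis, the urea cycle, amino acid breakdown and fatty acid oxidation. Hepatocytes also secrete hepcidin, the hormone that closes the iron exporter ferroportin. Its gene Hamp is switched on by BMP6 from sinusoidal endothelial cells through SMAD proteins, and by interleukin 6 through STAT3.

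Hepcidin is the hormone the study turns on, and mice carry a second copy of its gene, Hamp2, so the sequences in front of both genes are shown with the motifs through which BMP-SMAD and STAT signals are known to act. In the files' annotation, Hamp lies at chr7:30942368-30944032 and Hamp2 at chr7:30922372-30924681 of GRCm38. The sequences below are the 250 bases before each RefSeq start (build GRCm38.p6, minus strand, 5′ to 3′), chr7:30944030-30944279 for Hamp and chr7:30924182-30924431 for Hamp2, with matches in capitals.
Hamp: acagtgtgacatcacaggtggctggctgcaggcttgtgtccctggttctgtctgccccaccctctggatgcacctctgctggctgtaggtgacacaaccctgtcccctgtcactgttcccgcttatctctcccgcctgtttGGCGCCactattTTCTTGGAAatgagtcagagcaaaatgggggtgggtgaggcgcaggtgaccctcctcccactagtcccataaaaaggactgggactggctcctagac
Hamp2: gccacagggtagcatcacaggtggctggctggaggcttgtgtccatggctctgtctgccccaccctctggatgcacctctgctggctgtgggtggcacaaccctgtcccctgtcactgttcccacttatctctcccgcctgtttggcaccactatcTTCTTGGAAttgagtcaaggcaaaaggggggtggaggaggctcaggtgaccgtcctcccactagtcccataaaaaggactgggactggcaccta
The search covered GGCGCC, the core of the BMP response element, and TTCNNNGAA, a STAT motif, on both strands. TGACNNNGC, the core of the antioxidant response element, and CACGTG, the E-box, were searched too and had no match in either window. In front of Hamp, GGCGCC stands 109 to 104 bases and TTCTTGGAA 97 to 89 bases before the start. In front of Hamp2, TTCTTGGAA stands 94 to 86 bases before the start, and these letters of GGCGCC are not in the window. The Hamp2 window lies inside the annotated span of the gene, so its RefSeq start is not the annotated 5′ end. The bases before that annotated end were not searched. GGCGCC is in 9.59% and TTCNNNGAA in 7.02% of 32851 RefSeq promoters with windows of the same length, and the motifs searched do not overlap each other here. Both windows align with 227 identities over 253 columns (89.7%). The transcripts of these paralogs were not compared here, and how reads were divided between them was not tested.

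Because the members were chosen by their UMIs of the marker genes, the values of those genes are a description. Cyp2f2, a cytochrome P450, was at 981, 1061 and 666 counts per 1000000 UMIs of the class (CPM) in IDD, IDD+HTF and IDD+HID, and at least 1 UMI was present in 89.1%, 94.0% and 76.3% of members. Hal, the first enzyme of histidine breakdown, stood at 156, 179 and 439 CPM, and Hsd17b13, a lipid droplet protein, at 282, 283 and 252 CPM. Sds, serine dehydratase, was low at 39.6, 30.1 and 46.6 CPM. The median member held 3, 4 and 4 UMIs of these markers. At the limit, 42, 138 and 27 members had exactly 2 marker UMIs, and 40, 163 and 31 hepatocytes had only 1. Alb, the albumin gene, was found in every member of all 3 libraries, at 28715, 27864 and 34500 CPM.

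The class sums held 403693, 1495896 and 515365 UMIs, with a median per member of 2456.5, 2756 and 3315 UMIs and 609.5, 608 and 976 genes. No member barcode occurred in more than 1 library, and each pair of libraries shared 1 cell barcode. Markers of other cell types reached 10 per 10000 UMIs in 3, 28 and 17 members. Summed neutrophil and monocyte markers stood at 14.9, 22.1 and 1991 CPM and Kupffer cell markers at 44.6, 104 and 635 CPM. The high-iron sum thus carries more RNA of both, most of each from 1 member. One high-iron member of 4775 UMIs held 999 neutrophil and monocyte marker UMIs, and another of 82565 UMIs, of 515365 in its class, held 286 Kupffer marker UMIs.

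The members fell along a gradient of ribosomal RNA and related transcripts (CT010467.1, Mir6236, Lars2, Gm42418, Gm26917, AY036118, Rn7sk and rRNA genes). In IDD, IDD+HTF and IDD+HID their median share of a member's UMIs was 22.2%, 26.3% and 2.52%, with ranges of 0.874% to 73.2%, 0.699% to 67.5% and 0.333% to 63.5%. Members with at most 10% of such UMIs made up 36 of 128, 84 of 465 and 80 of 97. These low-ribosomal members had a median of 867.5, 1004.5 and 1142 genes and 2.69%, 3.94% and 5.42% mitochondrial UMIs, against 556.5, 564 and 560 genes and 8.68%, 6.10% and 8.49% in the rest.

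Several genes central to the study split along the same line in every library. Fth1, the ferritin heavy chain, was at 7110, 9459 and 5581 CPM in low-ribosomal members of IDD, IDD+HTF and IDD+HID and at 479, 486 and 527 CPM in the others. Hamp was at 3128, 2001 and 5236 CPM against 85.5, 239 and 1459 CPM. The complement gene C3 went the other way, at 371, 1038 and 912 CPM against 3817, 4764 and 6180 CPM, and so did G6pc, the last enzyme of glucose release, at 89.2, 242 and 112 CPM against 970, 603 and 284 CPM. Because the high-iron class is mostly low-ribosomal and the other classes mostly are not, list counts and the main ratios between libraries are given here over all members and again among low-ribosomal members. The part of this gradient in the remaining differences was not tested.

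**Figure D1:**
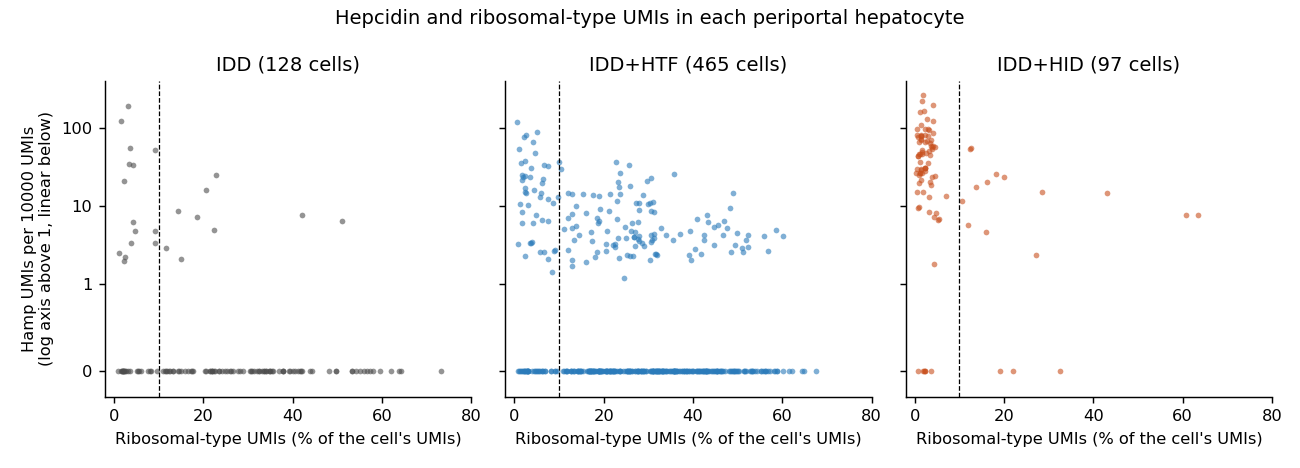
Hamp UMIs per 10000 in each periportal member (log axis above 1, linear below) against its percentage of ribosomal UMIs, by library, with a dashed line at 10%. The highest values of each library lie left of the line, and the median member had 0, 0 and 30.9 Hamp UMIs per 10000 in IDD, IDD+HTF and IDD+HID.

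Compared with pericentral hepatocytes of the same mice, periportal members had higher levels of Pck1, Gls2, Etnppl and other known periportal genes outside the rule, and lower levels of Lect2, Cyp2c50, Gulo and other pericentral genes. The zones were compared over the 3 mice with edgeR's quasi-likelihood test on 6 summed profiles, the library as block and Benjamini-Hochberg adjusted p under 0.05. Of 3093 genes outside the rule, 61 (1.97%) were higher and 90 (2.91%) lower in periportal members, with a median log2 difference of -0.02 over all genes tested. All 61 higher genes, and 79 of the lower genes, were on the same side in all 3 libraries.

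Of other known periportal genes, 14 of 31 tested were higher and 0 lower, with a median log2 difference of 0.56. Pck1, the gatekeeper enzyme of gluconeogenesis, was at 270, 408 and 1453 CPM in periportal and 55.0, 83.5 and 347 CPM in pericentral cells of IDD, IDD+HTF and IDD+HID, a log2 difference of 1.95 (SE 0.21, edgeR adjusted p = 8.5e-12). Gls2, the liver glutaminase, differed by 2.21, Etnppl, which breaks down phosphoethanolamine, by 2.48, and Ctsc, cathepsin C, by 2.33. Genes were ranked among protein-coding genes on the same side in all 3 libraries, without mitochondrially encoded, ribosomal protein, Mup, Gm-number or Rik genes. Gm4956 (4.29) was called but left out by this. The 10 largest differences so ranked also held Hsd17b6 (2.78), the serine dehydratase relative Sdsl (2.38), Tstd1 (2.26), Ugt2b38 (2.21), Mfsd2a (1.92) and the metallothionein Mt1 (1.84). Each had a higher summed CPM in periportal members of all 3 mice. For Mt1 this rested on few cells. A UMI of it was in 3 of 128 periportal and 0 of 26 pericentral cells of IDD, and in 10 of 465 and 4 of 214 of IDD+HTF.

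Urea cycle and amino acid genes were higher for 11 of 37 and lower for 0, with a median of 0.39. Ass1 and Asl, consecutive urea cycle enzymes, differed by 0.76 and 1.03, and Cps1, the first of the cycle, by 0.77. Arg1, the last, differed by 0.53 and did not pass (edgeR adjusted p = 0.114). Among hepatocytes with at most 10% ribosomal UMIs, 1 of 31 genes of the list was called higher and 0 lower, with a median of 0.47, and Ass1 (0.72), Asl (0.91) and Cps1 (1.02) did not pass (adjusted p from 0.0656 to 0.174 by edgeR). Hamp was at 1100, 652 and 4874 CPM in periportal and 137, 361 and 2666 CPM in pericentral cells. The log2 difference was 0.98 (SE 0.20, edgeR adjusted p = 0.00023), with the summed CPM on the same side in 3 of 3 mice. The share of cells with a Hamp UMI did not follow this order throughout. It was lower in periportal than in pericentral cells of IDD (18.8% and 23.1%) and of IDD+HTF (35.9% and 41.6%). Only in IDD+HID was it higher (90.7% and 84.5%). A single IDD member held 45.9% of the periportal Hamp UMIs there. Hamp2 was on different sides in different mice, and its difference of -0.80 did not pass (adjusted p = 0.149 by edgeR).

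Known pericentral genes outside the rule were lower for 12 of 19, with a median of -1.28 and 0 higher. The chemotactic factor Lect2 was at 7.43, 4.68 and 3.88 CPM in periportal and 192, 49.8 and 115 CPM in pericentral cells, a log2 difference of -4.35 (SE 0.44, edgeR adjusted p = 2.4e-13). The next lowest in the same ranking were Cyp2c50, a cytochrome P450 (-4.24), and Gulo, the last enzyme of vitamin C synthesis (-3.20). Rgn, an enzyme of the same pathway (-2.94), Tsc22d1 (-2.66) and Rnase4 (-2.32) followed. The tight junction gene Cldn2 (-2.03), Ang (-2.03), the organic anion transporter Slco1b2 (-2.01) and Pon1 (-1.96) completed the 10. Of 9 major urinary protein (Mup) genes tested, outside this ranking, Mup17 (-4.10) and Mup11 (-3.19) were lower and Mup20 (1.54) higher. Rnase4 and Ang share a locus and first exons, so their counts are not independent.

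The mitochondrially encoded subunits were lower in periportal members for 12 of 12 tested (median -0.96), while nuclear respiratory chain genes were higher for 5 of 32 (median 0.50). Neither pattern was called among hepatocytes with at most 10% ribosomal UMIs, where 0 of 12 mitochondrially encoded genes (median -0.30) and 0 of 31 nuclear genes (median 0.27) passed; mt-Nd4 went from -0.95 to -0.19 (edgeR adjusted p = 0.912). Ribosomal UMIs took 22.2%, 24.9% and 3.78% of the periportal sums and 33.7%, 41.2% and 12.2% of the pericentral sums, and the mitochondrial share was also higher in pericentral cells. Among hepatocytes with at most 10% ribosomal UMIs, 79 genes were higher and 21 lower. Of the 61 higher genes above, 23 were called there, 31 kept their direction and 7 were not tested, but of the 90 lower genes 20 were called and 15 turned direction, C4b and Lars2 among them, with only 3 pericentral cells left in IDD. Hamp (1.39), Pck1 (2.18), Lect2 (-4.59) and Rgn (-3.24) were among the calls, and Slco1b2 (-0.06) was not. Without the IDD+HTF library, which holds 214 of the 343 pericentral cells, edgeR called 4 genes higher and 14 lower, and 17 of 149 calls were kept; without IDD+HID the counts were 20 and 47.

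**Figure D2:**
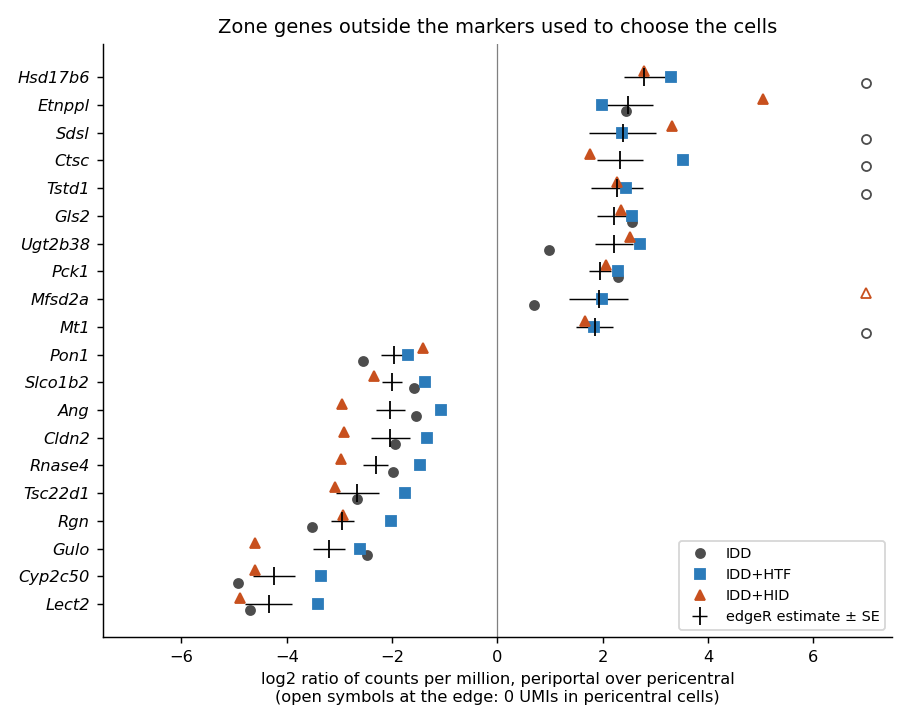
Log2 difference of CPM between periportal and pericentral hepatocytes in each of the 3 libraries for the 20 genes named above, with crosses for the edgeR estimate ± SE and open symbols at the edge where pericentral cells had 0 UMIs. The higher genes lie right of 0 and the lower genes left of 0 in all 3 libraries.

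Among hepatocytes with a zone, periportal cells made up 83.1% in the control library (95% Clopper-Pearson interval 76.2% to 88.7%), 68.5% after holo-transferrin (64.8% to 72.0%) and 48.5% after the high-iron diet (41.4% to 55.7%). The marker genes themselves differed between the libraries, so this order is a description of the rule's outcome. Over all members Cyp2f2 was lower in IDD+HID than in IDD, but it was at 587, 821 and 590 CPM in low-ribosomal members of IDD, IDD+HTF and IDD+HID and at 1178, 1134 and 1378 CPM in the others. Hal was at 253, 279 and 479 CPM in low-ribosomal members.

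The diet comparison asks which periportal genes differ once iron returns with the food. At least 1.5-fold higher CPM than IDD was found in 1121 of 1932 measured genes (58%) of IDD+HID. Measured means 20 or more UMIs expected in each library at the rate of both libraries pooled. A gene with few UMIs in 1 library can thus be measured through the other, and list counts leave out genes low in both. Ribosomal UMIs took 3.78% of the IDD+HID sum and 22.2% of the IDD sum. TMM scaling, which matches the bulk of genes, shifts every log2 ratio of IDD+HID over IDD by -0.73 and that over IDD+HTF by -0.79. Calls over all members below therefore require 1.5-fold by both CPM and TMM. On that footing 501 genes (25.9%) were higher and 313 (16.2%) lower in IDD+HID than in IDD, with a median of 0.81 by CPM and 0.08 by TMM. Calls among low-ribosomal members, here and below, were made by CPM alone, so the criterion differs as well as the members. There, 235 of 851 genes (27.6%) were higher and 94 (11%) lower, with a median of 0.19.

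Hepcidin and its companion BMP-SMAD targets were higher in 4 of 4 measured genes of IDD+HID over IDD, with a median log2 ratio of 2.52 by CPM and 1.79 by TMM. The list has 11 genes, and Hamp2, with 7 UMIs in IDD, was measured through IDD+HID. The filter thus partly sets this count. Hamp had 444, 976 and 2512 UMIs, or 1100, 652 and 4874 CPM, in IDD, IDD+HTF and IDD+HID. The high-iron library was highest. IDD+HID over IDD gave a log2 ratio of 2.15 (95% counting interval 2.00 to 2.30), 1.42 by TMM and 0.74 among low-ribosomal members. Hamp2 had 7, 51 and 200 UMIs (17.3, 34.1 and 388 CPM), a log2 ratio of 4.48 (3.41 to 5.82) that was 3.25 among low-ribosomal members. It came from few cells: 2 high-iron members held at least as many of its UMIs as all others together.

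The inhibitors of differentiation Id1, Id2 and Id3 are direct SMAD targets. Id3 was at 29.7, 22.1 and 221 CPM and Id2 at 126, 149 and 380 CPM, again highest in IDD+HID, with log2 ratios over IDD of 2.90 and 1.59 and of 1.43 and 1.15 among low-ribosomal members. Id1 had 0, 4 and 26 UMIs, which makes it 6.79-fold higher in IDD+HID against a floor of 3 counts in the IDD class. That ratio was 4.09-fold by TMM and 2.5-fold among low-ribosomal members. Ratios against this floor leave out counting error in the treated library. The exact interval of Id1 among low-ribosomal members began at a log2 ratio of 0.92. Droplets with at most 100 UMIs, which hold free RNA, carried Id3 at 147, 306 and 410 CPM, above the periportal level in every library. Smad7, an inhibitory SMAD, had 2, 13 and 11 UMIs and Smad6 had 1, 1 and 2, too few for a ratio.

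The share of members with a Hamp UMI, after thinning each cell to 1000 UMIs, was 11.8%, 20.4% and 82.8% (18.8%, 35.9% and 90.7% before thinning), and in lymphocyte-marker cells, which do not make hepcidin, it was 0.207%, 1.18% and 2.98%. Those cells had medians of 4665.5, 4372.5 and 5303 UMIs. The share with a Hamp UMI was higher in IDD+HTF than in IDD while the summed CPM was lower, so no order is read between these libraries. In IDD, 1 member held 204 of the 444 Hamp UMIs. IDD+HTF over IDD gave a log2 ratio of -0.75 (-0.92 to -0.59) over all members, -0.64 among low-ribosomal members, 1.49 among the others and -0.18 with members weighted equally.

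**Figure D3:**
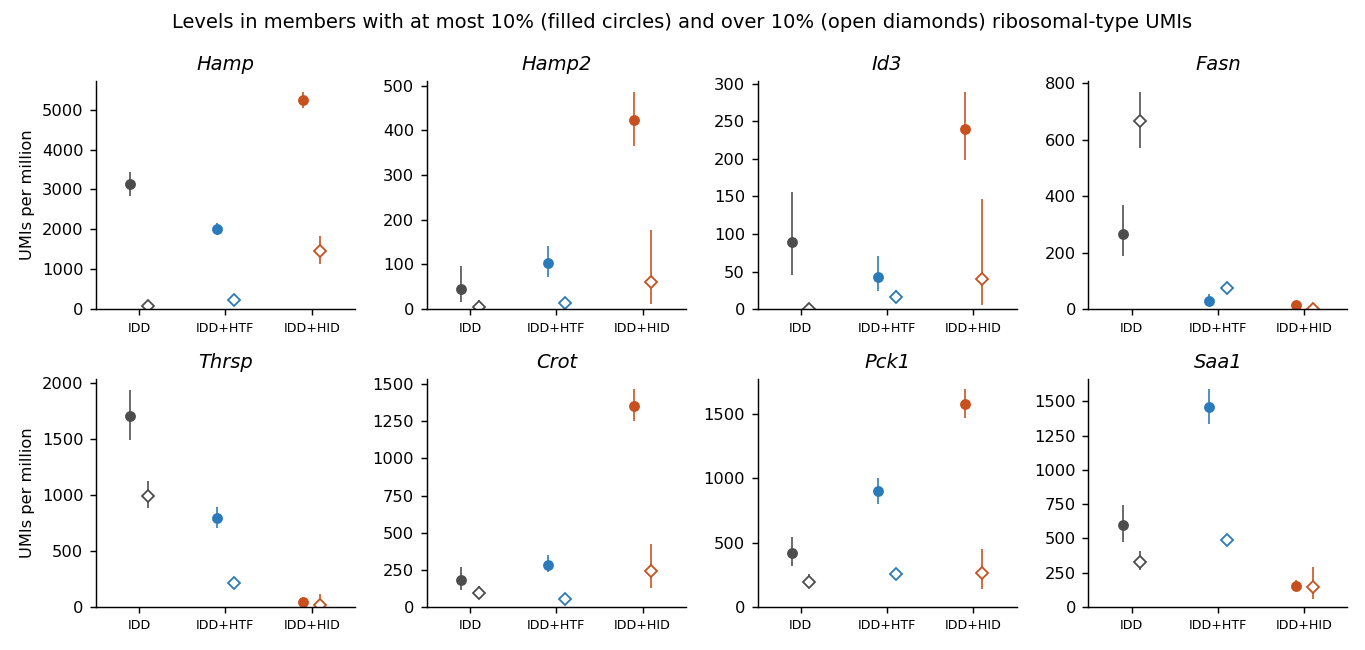
CPM of 8 genes (linear axes from 0) in members with at most 10% (filled circles) and over 10% ribosomal UMIs (open diamonds), by library, with exact 95% Poisson intervals. Hamp, Hamp2, Id3, Crot and Pck1 are highest and Fasn, Thrsp and Saa1 lowest in IDD+HID among low-ribosomal members.

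Iron storage and uptake genes depended on which members were read. Ftl1, the ferritin light chain, was at 2970, 2028 and 7577 CPM, and IDD+HID over IDD gave 1.35 (0.62 by TMM and 0.47 among low-ribosomal members). Fth1 was at 2690, 2590 and 5097 CPM, a log2 ratio of 0.92 over all members and -0.35 among low-ribosomal members, so its direction turned. Tfr2, the hepatocyte sensor of holo-transferrin, was at 141, 138 and 81.5 CPM, with ratios of -0.79 and, among low-ribosomal members, 1.25. Tmprss6, the protease that damps hepcidin signalling, turned likewise, from -0.99 at 223, 380 and 113 CPM to 0.87. The low-ribosomal members of IDD held only 4 Tfr2 and 6 Tmprss6 UMIs. Of the iron sensing and BMP receptor list, these 2 genes were measured, and 2 of 2 were called lower over all members.

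Trf, the transferrin gene, was at 10662, 11255 and 9453 CPM, with a ratio of -0.17 over all members and 0.87 among low-ribosomal members. The exporter gene Slc40a1 was at 27.2, 50.8 and 101 CPM against 104, 234 and 266 CPM in free RNA, and at 27.6, 50.9 and 45.6 CPM without members carrying markers of other types. The importer Slc39a14 was at 71.8, 103 and 31.0 CPM over all members. It was at 14.9, 22.8 and 19.3 CPM (2, 8 and 9 UMIs) in low-ribosomal members and at 100, 127 and 142 CPM in the others. Neither part shows the lower IDD+HID level of the summed class. Tfrc, the transferrin receptor, had 15, 36 and 3 UMIs. Alas1, the first enzyme of heme synthesis, was at 9.91, 80.9 and 149 CPM, lowest in IDD with 4 UMIs, and IDD+HID over IDD gave a log2 ratio of 3.91 over all members and 2.36 among low-ribosomal members. In heme synthesis and breakdown 3 of 5 measured genes were higher (0 were measured among low-ribosomal members), Blvrb, a biliverdin reductase, among them at 34.7, 34.8 and 130 CPM. Hmox1, heme oxygenase, had 0, 3 and 15 UMIs.

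Fat oxidation genes were higher in IDD+HID than in IDD in 12 of 13 measured members of the list, and in 10 of 10 among low-ribosomal members, where the median was 1.48. Of the list's 24 genes, 8 were measured in IDD+HTF over IDD. Genes such as Cyp4a10, with 0 UMIs in IDD, were measured only through IDD+HID, so the filter partly sets these counts. Crot, which moves medium-chain fatty acids out of peroxisomes, was at 121, 110 and 1250 CPM, so that IDD and IDD+HTF lay close together and IDD+HID far above, with a log2 ratio of 3.36 (2.94 to 3.81) and 2.93 among low-ribosomal members. The peroxisomal and mitochondrial enzymes Acaa1b (114, 86.9 and 609 CPM), Hadha (69.4, 41.4 and 353 CPM), Hadhb (39.6, 28.7 and 252 CPM) and Ehhadh (12.4, 8.69 and 118 CPM) had the same order. Eci2, an enoyl-CoA isomerase, was at 19.8, 24.1 and 258 CPM. Cyp4a10, a fatty acid hydroxylase, had 0, 8 and 67 UMIs, 17.5-fold higher in IDD+HID than in IDD by the floor of 3 counts. Its relative Cyp4a14 had 0, 2 and 35, 9.14-fold higher by that floor. These ratios were 10.6-fold and 5.51-fold by TMM, and 4.91-fold for Cyp4a10 and 2.21-fold for Cyp4a14 among low-ribosomal members. The exact intervals there began at log2 ratios of 1.95 and 0.73.

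Fabp1, which carries fatty acids in the cytoplasm and was part of the hepatocyte rule, was at 9586, 6143 and 34775 CPM. The median member had 29.7, 13.7 and 344 of its UMIs per 10000. It was at 24204, 21038 and 38154 CPM in low-ribosomal members and at 2274, 1581 and 2877 CPM in the others. Within these parts IDD+HID over IDD gave log2 ratios of only 0.66 and 0.34. Pdk4, which spares glucose, had 3, 0 and 0 UMIs, and the fasting hormone gene Fgf21 had 4, 1 and 19. Pck1 was at 270, 408 and 1453 CPM, with a log2 ratio of 2.43 (2.14 to 2.73) and 1.92 among low-ribosomal members. One high-iron member held 27.4% of its UMIs there. G6pc, at 676, 519 and 128 CPM, gave -2.40 over all members and 0.32 among low-ribosomal members. Igfbp1, at 163, 90.2 and 75.7 CPM, turned in the same way, from -1.11 to 1.38, with 4 UMIs in low-ribosomal members of IDD. The fasting and gluconeogenesis list had 2 of 10 genes higher and 4 lower, and 3 of 4 higher and 0 lower among low-ribosomal members.

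Genes of glucose use and fatty acid synthesis were lower in IDD+HID than in IDD in 8 of 12 measured genes and higher in 0 (4 of 5 and 0 among low-ribosomal members), with a median of -1.69. Fasn, fatty acid synthase, was at 533, 62.8 and 11.6 CPM. The control was highest and the high-iron library lowest, with 215, 94 and 6 UMIs behind these levels. The log2 ratio was -5.52 (-6.98 to -4.37) and -4.38 among low-ribosomal members. Thrsp, a lipogenic partner protein, was at 1234, 353 and 42.7 CPM, Acly, which makes cytosolic acetyl-CoA, at 599, 122 and 54.3 CPM, and the elongase Elovl6 at 243, 61.5 and 15.5 CPM. Scd1, the stearoyl-CoA desaturase, was at 5893, 3201 and 2020 CPM. The share of members with a Fasn UMI after thinning was 35.5%, 4.94% and 0.845%, and in lymphocyte-marker cells 2.62%, 1.12% and 1.41%. The high-iron share did not exceed that of lymphocyte-marker cells. Whether their Fasn UMIs were free RNA or their own transcripts was not tested.

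Sterol synthesis genes were lower in 7 of 8 measured genes, among them Fdps (178, 21.4 and 34.9 CPM) and Cyp51 (141, 42.1 and 31.0 CPM). Among low-ribosomal members only 1 gene of the list was measured and 0 were lower, while Fdps, with 35 and 16 UMIs there, gave -2.92. Hmgcs1, the entry enzyme, was at 91.7, 22.7 and 81.5 CPM, close to the control in IDD+HID, and Sqle had 36, 13 and 4 UMIs. Of the bile acid list, 1 gene was higher and 6 of 12 were lower, with a median of -0.45, and among low-ribosomal members 1 was higher and 1 lower of 3, with a median of 0.48. Cyp8b1, the sterol 12-hydroxylase, was at 277, 173 and 62.1 CPM, and the bile salt pump Abcb11 at 198, 205 and 46.6 CPM. Cyp7a1, the rate-limiting enzyme of bile acid synthesis, had 1, 8 and 0 UMIs. Aqp8, a water channel, was at 367, 163 and 36.9 CPM and the transporter Slc22a7 at 260, 241 and 38.8 CPM.

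The major urinary proteins, pheromone carriers made by the liver, were lower in 7 of 8 measured genes of IDD+HID and in 7 of 7 among low-ribosomal members, where the median was -3.05. Mup11 was at 800, 255 and 36.9 CPM, Mup7 at 2039, 1126 and 421 CPM and Mup1 at 852, 269 and 202 CPM. These genes are near-identical copies, so reads may be divided between them, and the Mup11 level in free RNA was 765, 600 and 390 CPM, above the class in both treated libraries.

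Among targets of NRF2, the regulator of antioxidant genes, 7 of 14 were higher and 1 lower in IDD+HID than in IDD (5 and 2 of 9 among low-ribosomal members). Gclc, which makes the glutathione precursor, was at 104, 74.9 and 342 CPM, a ratio of 1.71 (1.22 to 2.24) and 2.84 among low-ribosomal members. Gstm1, a glutathione transferase, was at 126, 82.9 and 788 CPM, Prdx1, a peroxiredoxin, at 874, 594 and 2412 CPM, and Txn1, thioredoxin, at 325, 285 and 1090 CPM. Nqo1, a classical target, had 0, 1 and 0 UMIs. Aox3, an aldehyde oxidase, was at 255, 173 and 1426 CPM.

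Urea cycle and amino acid genes were higher in 8 of 33 and lower in 2, close to the 25.9% of all measured genes that were higher. Among low-ribosomal members 9 of 22 were higher and 0 lower, against 27.6% and 11% of all genes. Tdo2, the first enzyme of tryptophan breakdown, was at 597, 576 and 1789 CPM, Mat1a, which makes S-adenosylmethionine, at 258, 373 and 809 CPM, and Arg1 at 429, 358 and 1063 CPM. Ass1 was at 1808, 1094 and 2352 CPM (IDD+HID over IDD gave -0.31 among low-ribosomal members), Gls2 at 161, 125 and 165 CPM, and Cps1 at 297, 247 and 464 CPM. Without members carrying markers of other types, Cps1 was at 291, 251 and 243 CPM.

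Acute phase genes were lower in IDD+HID than in IDD in 9 of 17 measured genes, but among low-ribosomal members 4 of 11 were higher and 2 lower. Those 2 were Saa1, a serum amyloid A gene, at -1.94, and Orm1, orosomucoid, at -1.11. Saa1 was at 419, 716 and 153 CPM and its close copy Saa2 at 134, 166 and 54.3 CPM, and reads may be divided between them. Hp, haptoglobin, was at 3352, 4716 and 1927 CPM, Fgb, a fibrinogen chain, at 4528, 5382 and 4354 CPM, and C4b, a complement gene, at 874, 1010 and 258 CPM. C3 turned from -0.91 to 1.30 among low-ribosomal members, and C4b from -1.76 to 0.65. Lcn2 had 3, 12 and 11 UMIs.

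The ER chaperone Hspa5 was at 1092, 1656 and 673 CPM and Xbp1, a factor of the unfolded protein response, at 94.1, 183 and 144 CPM. Of that list, 3 of 10 genes were lower and 0 higher in IDD+HID, and 2 of 5 were higher and 0 lower among low-ribosomal members. Mitochondrially encoded genes were lower in 10 of 12, but higher in 2 of 10 and lower in 0 among low-ribosomal members. mt-Nd4 was at 9648, 6750 and 4915 CPM over all members and mt-Atp8 at 572, 638 and 215 CPM. Fos and Jun, early response factors, were at 54.5, 54.8 and 221 CPM and at 107, 78.9 and 165 CPM, below their free RNA levels in each library. Hspa1a had 0, 25 and 4 UMIs.

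**Figure D4:**
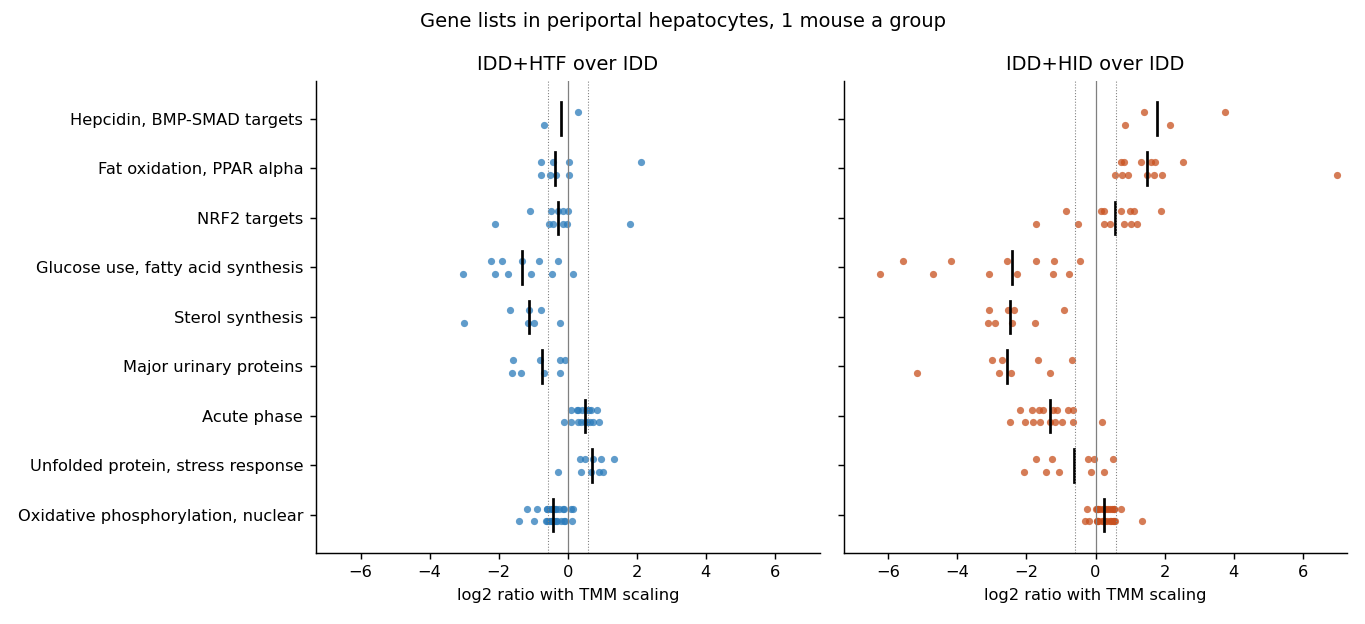
TMM-scaled log2 ratios of the measured genes of 9 lists in IDD+HTF over IDD and IDD+HID over IDD, 1 point a gene and a bar at the median, with dotted lines at 1.5-fold in both directions and Cyp4a10, with 0 UMIs in IDD, at the right edge. Hepcidin and fat oxidation genes lie right of 0 and fatty acid synthesis, sterol and major urinary protein genes left of 0 in IDD+HID over IDD.

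Several of the largest differences between IDD+HID and IDD were in genes of other cell types. S100a8 and S100a9, neutrophil calprotectin, had 0, 0 and 407 and 0, 1 and 563 UMIs, and without members carrying markers of other types IDD+HID stood at 0 and 2.53 CPM. Wfdc17, Cd74, H2-Ab1 and Ifi27l2a, genes of myeloid and antigen-presenting cells, stood at 177, 380, 140 and 111 CPM in IDD+HID and at 17.7, 30.4, 10.1 and 17.7 CPM without those members. Mcm10, a replication factor, had 0, 53 and 46 UMIs and was at 91.3 CPM in IDD+HID without those members. By the floor of 3 counts, IDD+HID over IDD was 12.0-fold over all members, 7.24-fold by TMM and 4.24-fold among low-ribosomal members. The lowest also held Alkbh5 (2633, 1251 and 155 CPM), Lars2 (12076, 10172 and 2239 CPM) and Sass6 (352, 690 and 50.4 CPM), which free RNA carried at 7473, 12523 and 1147 CPM in IDD.

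After holo-transferrin, 213 of 1454 measured genes (14.6%) were higher and 202 (13.9%) lower in IDD+HTF than in IDD by both scales, with a median of -0.08 by CPM. Among low-ribosomal members 147 of 789 (18.6%) were higher and 59 (7.48%) lower, with a median of 0.09. IDD is the control of this comparison and of the one above, so their ratios are not independent. Fatty acid and glucose genes were lower in 8 of 11 and higher in 0 (3 of 4 and 0 among low-ribosomal members), and sterol genes lower in 6 of 7 (0 of 1 among low-ribosomal members). Fasn gave -3.08 (-3.45 to -2.73), Acly -2.29, Me1, which supplies NADPH, -2.18 at 248, 54.8 and 124 CPM, Thrsp -1.81, Elovl6 -1.98 and Fdps -3.06. Among low-ribosomal members Acly gave -1.30, Thrsp -1.10, Me1 -1.68 and Fdps -2.60, and Elovl6 was at 37.1 CPM in both libraries. Angptl8, an insulin-induced lipase regulator, was at 134, 35.4 and 126 CPM, near the control again in IDD+HID.

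The major urinary proteins were lower in IDD+HTF in 5 of 8 genes and higher in 0, over all members and among low-ribosomal members alike. Mt1, a metallothionein, was at 211, 25.4 and 231 CPM, but at 74.5, 170 and 376 CPM in free RNA, and only 3, 10 and 26 members had a UMI. Mt2 had 19, 2 and 11 UMIs. Tubb2a, a tubulin, was at 198, 44.1 and 163 CPM, lowest in IDD+HTF. Nuclear respiratory chain genes were lower in 9 of 31 and higher in 0, led by Atp5g1 (463, 167 and 774 CPM) and Uqcrb (473, 200 and 691 CPM), and 1 was higher and 2 lower of 31 among low-ribosomal members.

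Acute phase genes were higher in IDD+HTF in 4 of 17 measured genes and lower in 0, and higher in 7 of 13 and lower in 0 among low-ribosomal members. Saa1 gave 0.77 (0.54 to 1.02) and 1.29 among low-ribosomal members, and C3 0.54 and 1.48. After thinning, 21.6%, 35.8% and 15.6% of members had a Saa1 UMI, against 0.38%, 0.715% and 0.515% of lymphocyte-marker cells. Unfolded protein response genes were higher in 6 of 10 and lower in 0 (4 of 6 and 0 among low-ribosomal members), with Xbp1 at 0.96 and Hspa5 at 0.60. Of the hepcidin list, 1 of 2 measured genes, Hamp, was called lower, with the split given above.

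Alas1 gave 3.03 (1.64 to 4.93) in IDD+HTF over IDD and 3.14 among low-ribosomal members. Onecut1, a hepatocyte transcription factor, had 0, 97 and 30 UMIs. By the floor of 3 counts it was 8.73-fold higher in IDD+HTF and 7.83-fold higher in IDD+HID than in IDD (5.12-fold and 2.89-fold among low-ribosomal members). Arid5b, a DNA-binding protein (4.95, 66.8 and 99.0 CPM), and Phlda1 (19.8, 131 and 204 CPM) were likewise lowest in IDD, with 2 and 8 UMIs there and log2 ratios of IDD+HTF over IDD of 3.75 (1.86 to 6.82) and 2.73 (1.72 to 3.96). Ugt2b38, a glucuronosyltransferase, was at 54.5, 233 and 50.4 CPM, and Cxcl9, an interferon-induced chemokine, at 27.2, 116 and 5.82 CPM. Cd74 in IDD+HTF had 150 UMIs and, without members carrying markers of other types, 20 UMIs.

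A set of genes was highest in IDD+HTF and high in free RNA: Lrp4 (1357, 4409 and 347 CPM), Klkb1 (1714, 4586 and 557 CPM), Dpysl2 (329, 1040 and 116 CPM), Spry2 (327, 829 and 89.3 CPM), Ccdc184 (290, 785 and 109 CPM) and the endothelial gene Pecam1 (1179, 2292 and 363 CPM). Free RNA held Lrp4 at 2590, 5399 and 1460 CPM and Klkb1 at 2934, 5034 and 1548 CPM. Both lay above the class in every library. Among low-ribosomal members Lrp4 was at 201, 773 and 167 CPM.

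Between the treated libraries, IDD+HID over IDD+HTF had 1166 of 2030 genes (57.4%) higher by CPM, and 627 (30.9%) higher and 467 (23%) lower by both scales, with a median of 0.84 by CPM and 0.05 by TMM. Among low-ribosomal members 481 of 1891 (25.4%) were higher and 211 (11.2%) lower, with a median of 0.18. Hepcidin genes were higher in 3 of 4 (4 of 4 among low-ribosomal members) and fat oxidation genes in 9 of 12 (13 of 13). Hamp gave 2.90 (2.79 to 3.01) and 1.39 among low-ribosomal members, Hamp2 3.51 and 2.04, and Crot 3.51 and 2.25. G0s2, an inhibitor of fat breakdown, was at 86.7, 28.1 and 429 CPM and Hsdl2, a peroxisomal dehydrogenase, at 22.3, 8.69 and 136 CPM, both highest in IDD+HID and lowest in IDD+HTF.

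Acute phase genes were lower in IDD+HID than in IDD+HTF in 11 of 18 and higher in 0 (6 of 17 and 0 among low-ribosomal members), with Saa1 at -2.22 and -3.24. The major urinary proteins were lower in 3 of 8 and higher in 0, and in 8 of 8 among low-ribosomal members. Nuclear respiratory chain genes were higher in 21 of 32 and lower in 0, with Cox5a at 344, 243 and 951 CPM and Atp5e at 622, 650 and 1521 CPM. Among low-ribosomal members 1 was higher and 2 lower of 32, and Atp5e gave -0.36. Alas1 gave 0.89 over all members and -0.78 among low-ribosomal members.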

How the data were processed

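The libraries were made with 10x Chromium 3′ v3.1 chemistry, and the deposited files hold the authors' raw UMI counts for every barcode; per the submitters' processing notes they rest on GRCm38 and Seurat 4, while no source used here gives the aligner or counter. Gene symbols came from GENCODE M21 (55240 of 55421 identifiers). The members and lists were chosen with earlier results of these data known. Counts of members were summed per library and given as counts per 1000000 UMIs (CPM). A gene was measured with 20 or more UMIs expected in each library at the pooled rate of the pair. Main calls were made at 1.5-fold, by both CPM and TMM over all members and by CPM alone among low-ribosomal members. Intervals were exact conditional binomial or Poisson. Zone sums were tested with edgeR 4.0.16 (quasi-likelihood, TMM, library block). Zone p-values measure the spread between 3 mice of different treatments. No doublet caller was run; members with 10 or more other-type marker UMIs per 10000 were left out as an alternative. Scaling, limits, thinning, weighting and free RNA were varied, and TMM together with CPM and the low-ribosomal subset were added after seeing the data. Named genes were a fixed panel, the 10 highest and 10 lowest protein-coding genes of each comparison by the interval bound nearest 1, the 10 highest and 10 lowest of the zone test, and list examples. Both rankings left out mitochondrially encoded, ribosomal protein and Mup genes and symbols of the Gm-number or Rik type. The zone ranking also required the same side in all 3 libraries. The test script was tested on simulated data. Class totals ranged from 403693 to 1495896 UMIs. Python 3.11.15, scipy 1.17.1, R 4.3.3 and DESeq2 1.42.0 were used. A few genes that these choices named are not reported here, in the text or in the account of settings.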

Additional observations from a re-analysis of the deposited data

Results flagged for a closer look

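Over all members, a few genes had log2 CPM ratios of opposite sign in periportal and pericentral hepatocytes of the same libraries, and their counting intervals lie on either side of 0. With 1 mouse in each group these differences were not tested over mice. Hamp in IDD+HTF over IDD was -0.75 in periportal and 1.39 in pericentral cells, a zone difference of -2.14, with 10 pericentral UMIs in IDD. The periportal value was -0.64 among low-ribosomal members, 1.49 among members with over 10% ribosomal UMIs and -0.18 with members weighted equally, and 1 IDD member held 204 of the 444 UMIs. Trf was 0.08 and -0.39 in the same comparison, a difference of 0.465, and the periportal value was 0.40 in low-ribosomal members and -0.09 in the others. Ccdc184 in IDD+HID over IDD was -1.42 and 1.05, a difference of -2.46, but the periportal value was -0.03 in low-ribosomal members (counting interval -1.52 to 1.77) and 0.92 in the others, neither of which shows the lower level of the summed class. In IDD+HID over IDD+HTF the differences were -0.672 for Trf, -0.679 for Fgb, -1.48 for Rnase4 and -1.87 for Ang. There, periportal Trf was -0.25 over all members but 0.47 in low-ribosomal members and 0.26 in the others, on the same side as the pericentral 0.42. Periportal Fgb was -0.31 in low-ribosomal members and 0.76 in the others, Rnase4 -1.25 and -0.57, and Ang -2.03 and 0.31. Pericentral sums held 33.7%, 41.2% and 12.2% ribosomal UMIs in IDD, IDD+HTF and IDD+HID, and pericentral cells were not split in this way.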

How the results depend on the processing

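Zone shares kept their order IDD, IDD+HTF, IDD+HID under every setting run. They were 93.0%, 73.4% and 58.8% with a mitochondrial limit of 10%, 69.6%, 61.4% and 33.7% with 50%, and 92.3%, 78.5% and 64.5% among hepatocytes with at most 10% ribosomal UMIs. IDD+HTF was at 72.5% with a minimum of 2000 UMIs and 64.4% after thinning, where IDD+HID was at 37.0%. No paired analysis was possible because the treatment groups share only 1 replicate number, 1 mouse each. In the zone test the library was the block that pairs the zones, and with no block edgeR called 0 genes higher and 2 lower (53 at an unadjusted p under 0.05). DESeq2 called 26 and 49, thinning left 7 and 15, a minimum of 4 marker UMIs gave 31 higher, and low-ribosomal hepatocytes gave 21 lower. Leaving out 1 library gave 4 to 67 higher and 14 to 99 lower. Of the 10 highest and 10 lowest ranked genes, Hsd17b6, Etnppl, Ctsc, Tstd1, Gls2, Ugt2b38, Mt1, Cldn2 and Pon1 were not called without IDD+HTF. Etnppl, Sdsl, Mfsd2a and Mt1 were not called without IDD+HID.

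Counts in this paragraph were called by CPM alone where no scaling is named. For IDD+HTF over IDD, 396 genes were higher and 417 lower with 10 expected UMIs, 101 and 101 with 50, 396 higher with a mitochondrial limit of 50%, and 59 lower among low-ribosomal members. For IDD+HID over IDD, TMM gave 501 and 577, median-of-ratios scaling 515 and 573, 10 expected UMIs 1877 and 483, 50 expected UMIs 515 and 171, low-ribosomal members 235 and 94, a 10% mitochondrial limit 735 higher, and CPM with TMM 501 higher. For IDD+HID over IDD+HTF, TMM gave 627 and 737, median-of-ratios 622 and 739, 50 expected UMIs 529 and 281, low-ribosomal members 481 and 211, 10 expected UMIs 1960 higher, and CPM with TMM 627 higher. Higher genes made up 78.2% of calls for IDD+HID over IDD by CPM and 46.5% by TMM, and 71.4% and 46.0% for IDD+HID over IDD+HTF.

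Single genes turned direction, Trf, Ass1 and Slc39a14 as given above and others as follows, and the cause was not tested. Among low-ribosomal members, IDD+HID over IDD gave 0.32 for G6pc, 1.25 for Tfr2, -0.35 for Fth1, 1.38 for Igfbp1, 0.26 for Klkb1, 0.47 for Spry2, 0.56 for Pecam1, 0.87 for Tmprss6, 0.65 for C4b, 1.30 for C3, 0.59 for Hspa5, -0.54 for Atp5g1, 0.0081 for mt-Atp8 and 0.12 for mt-Nd4. IDD+HID over IDD+HTF there gave 0.83 for Tfr2, -0.76 for Fth1, 0.42 for Scd1, -0.78 for Alas1 and -0.36 for Atp5e, and IDD+HTF over IDD gave 0.078 for Igfbp1. TMM and median-of-ratios scaling gave -0.088 and -0.077 for Cps1, -0.099 and -0.088 for Jun and -0.12 and -0.11 for Xbp1 in IDD+HID over IDD, and -0.15 and -0.16 for Phlda1 over IDD+HTF. Cps1 over IDD was -0.26 without members carrying other types' markers, -0.33 without the largest IDD+HID member and -0.41 with members weighted equally, and over IDD+HTF -0.042, -0.070 and -0.035. Without that largest member Jun was -0.0031 over IDD. Slc40a1 over IDD+HTF was -0.16, -0.066 and -0.44 under those 3 settings. Depth limits genes with few UMIs, and a count of 0 allows 3.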

Other observations

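The remaining gene lists are given as counts over periportal members. Over all measured genes, 25.9% were higher and 16.2% lower in IDD+HID than in IDD, 27.6% and 11% among low-ribosomal members, and 14.6% and 13.9% in IDD+HTF over IDD. Of genes for secreted plasma proteins, 1 of 31 was higher and 10 were lower in IDD+HID than in IDD, against 2 higher and 3 lower of 28 among low-ribosomal members, and 5 of 31 were higher and 0 lower in IDD+HTF than in IDD (3 and 0 of 26 among low-ribosomal members). Immediate early and heat shock genes were higher in 4 of 14, close to the share of all genes, and lower in 0 in IDD+HID over IDD, and higher in 5 of 6 and lower in 0 among low-ribosomal members. Interferon response genes were lower in 1 of 6 there and in 3 of 6 among low-ribosomal members, where 1 was higher. Hypoxia genes were higher in 2 of 5, lipid peroxide defence genes in 1 of 4 and NF-kB and chemokine genes in 0 of 2, with 0 lower in each. Among low-ribosomal members these lists had 1 of 3, 0 of 4 and 0 of 1 higher and 0 lower.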
